A study of Mus musculus with 9 samples.

Results

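The genes described here are 31 genes of sugar transport, glycolysis, lactate handling and the pentose phosphate pathway, taken by symbol from the 24394 gene rows kept of a deposited table of read counts. All 31 had a row and all 31 were among the 13000 genes tested. They comprise 4 hexose transporters, 4 genes of glucose phosphorylation and isomerisation, 5 phosphofructokinase genes, 8 genes of the lower part of glycolysis, 6 genes of lactate and pyruvate fate and 4 genes of the pentose phosphate pathway. The counts come from RNA sequencing of 3 cell populations sorted on surface markers. The donor brains were those of aged mice (20 to 22 months) of the C57BL/6 strain. All of these mice had been given interleukin-33 (IL-33), a cytokine that activates group 2 immune cells, at 400 ng a day for 7 days. The populations were microglia (3 libraries), the resident macrophages of the brain, T cells (3 libraries) and group 2 innate lymphoid cells, ILC2 (2 libraries). No untreated or young mice are among the samples, so the comparisons below are between cell types under treatment. The labels do not name the surface markers, the sort gates, the sex or how many mice gave each library.

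Glucose enters cells through facilitative transporters of the SLC2 family and is trapped by hexokinase as glucose 6-phosphate. Glycolysis carries it to pyruvate, with phosphofructokinase as the main regulated step, and lactate dehydrogenase then turns pyruvate into lactate, which leaves through monocarboxylate transporters. The pentose phosphate pathway branches off at glucose 6-phosphate and yields NADPH, used by phagocytes for the oxidative burst and for keeping glutathione reduced, and ribose for nucleotides. Many of these steps are catalysed by paralogous enzymes that differ in affinity, regulation and tissue, and activated lymphocytes and macrophages are both known for raising glycolysis.

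Levels are read counts relative to the TMM-scaled size of the library (CPM), with mean ± SD over libraries. A gene was called different when its adjusted p was under 0.05 and its log2 fold change reached 1 in either direction, in 1 edgeR quasi-likelihood fit of all 8 libraries with p-values adjusted over all 13000 genes tested. Each library held 8376609 to 13585956 counts on genes, and a floor of 3 counts was 0.207 to 0.325 CPM. Libraries within a population need not be separate animals, so p-values measure the spread between these libraries. The summed level of 12 microglia markers was 95032 to 123252 CPM in the microglia libraries, 2156 to 4424 CPM in the T cell libraries and 2812 to 4311 CPM in the ILC2 libraries. The summed level of 10 T cell markers was 8277 to 11134 CPM in T cells and 8.38% and 11.0% of the T cell mean in the ILC2 libraries. Of the mean of 935 CPM in ILC2, Cd3g held 674 CPM, Lat 159 CPM and Bcl11b 72.2 CPM. The other markers had ILC2 means of at most 12.4 CPM (Cd3e, at 1823 CPM in T cells), and Cd6 was at 0. The sum of 12 ILC2 markers was 8116 and 8616 CPM in ILC2 and 686 to 1000 CPM in T cells. The 8 basophil and mast cell markers summed to 692 and 1284 CPM in ILC2, 11.6 to 66.0 CPM in T cells and 59.8 to 231 CPM in microglia, and their part in the ILC2 levels was not tested. The microglia libraries also held neutrophil transcripts. The summed level of the 9 neutrophil markers found of the 10 listed was 75382, 12610 and 88283 CPM in microglia 1, 2 and 3, against 87.7 to 436 CPM in T cells and 144 CPM in both ILC2 libraries. Cxcr2 was at 0 in every T cell library and Mmp8 in both ILC2 libraries. These are bulk samples, in which fewer cells of a type and less RNA per cell cannot be told apart. Neutrophils use sugar through the same pathway, and the part of their RNA in the microglia levels was not tested other than by leaving out microglia 1 and 3, the 2 libraries richest in it, a choice made after their values were seen.

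The members together held 0.592% to 0.738% of the counts on genes in every library. Their summed level was 8862, 7643 and 7481 CPM in microglia, 5374, 6540 and 6118 CPM in T cells, and 6212 and 7361 CPM in ILC2. On this scale every microglia library lay above every T cell and ILC2 library, but the order depended on the TMM scaling. Without it, microglia held 0.652% to 0.728% of the counts and overlapped with T cells at 0.592% to 0.701%, while both ILC2 libraries, at 0.730% and 0.738%, lay above every microglia library. No direction is therefore given for the sum.

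Between ILC2 and microglia, 9 members were called: 8 were lower in ILC2 (Slc2a5, Hk2, Hk3, Pfkfb3, Pfkfb4, Ldhb, Slc16a3 and G6pdx) and 1 was higher (Ldha). Of all genes tested, 4.76% were called lower and 4.99% higher in this comparison. The median log2 fold change was -0.65 over the members and -0.01 over all genes tested. Between T cells and microglia, 7 members were called: 6 were lower in T cells (Slc2a5, Hk2, Pfkfb3, Ldhb, Slc16a3 and Pgd) and 1 was higher (Pfkp), where 7.13% of all genes tested were called lower and 5.91% higher. The medians were -0.60 over the members and 0.00 over all genes tested. These 2 comparisons share the microglia libraries. The libraries did not overlap for 19 members in the first (5 higher and 14 lower in ILC2) and for 17 in the second (3 higher and 14 lower in T cells), against 43% (21.9% higher and 21.1% lower) and 37.2% (18.4% higher and 18.7% lower) of all genes tested. Slc2a5, Hk2, Pfkfb3, Ldhb and Slc16a3 were called lower in both lymphocyte populations, and 20 of the 31 members were called in no comparison.

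Between ILC2 and T cells, no member was called, where 0.431% of all genes tested were called higher and 0.492% lower. At an unadjusted p under 0.05, 6 members differed in this comparison by edgeR, as did 1221 of the 13000 genes tested (9.39%). DESeq2 called 2 of them lower in ILC2, Pfkfb4 and G6pdx, and limma-voom called 1 member lower, Pfkp. The libraries of the 2 populations did not overlap for 10 members, 6 higher and 4 lower in ILC2, where 25.2% of all genes tested did not overlap.

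**Figure D1:**
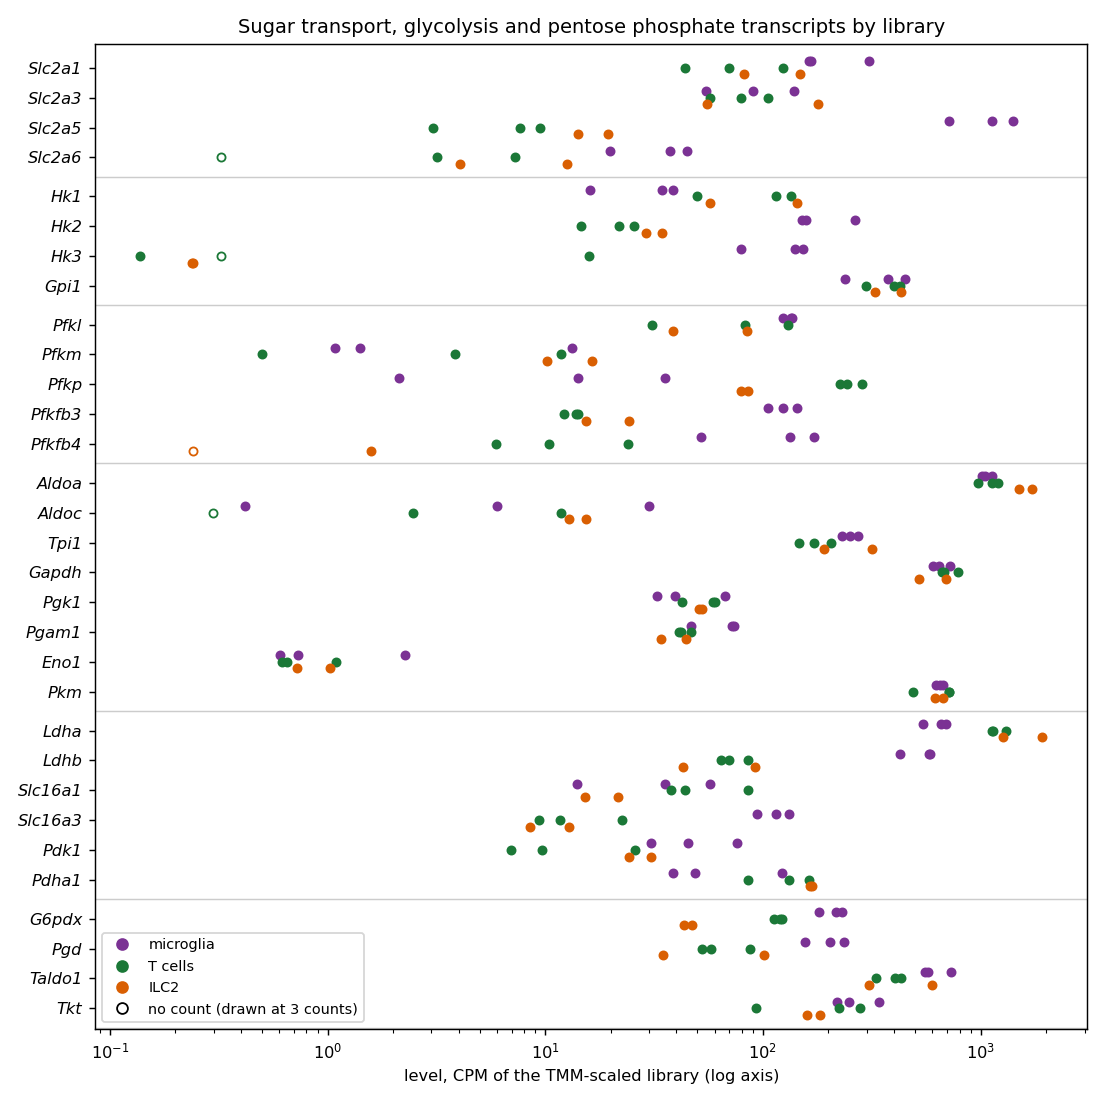
Level of each of the 31 genes in each library (CPM after TMM scaling, log axis), with 1 point per library of microglia, T cells and ILC2 and genes grouped by step; open points are libraries with no count, drawn at the floor of 3 counts. The microglia points of Slc2a5 lie between 714 and 1408 CPM, away from all lymphocyte points, which lie between 3.04 and 19.4 CPM, while the points of Gapdh and Pkm from the 3 populations overlap.

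**Figure D2:**
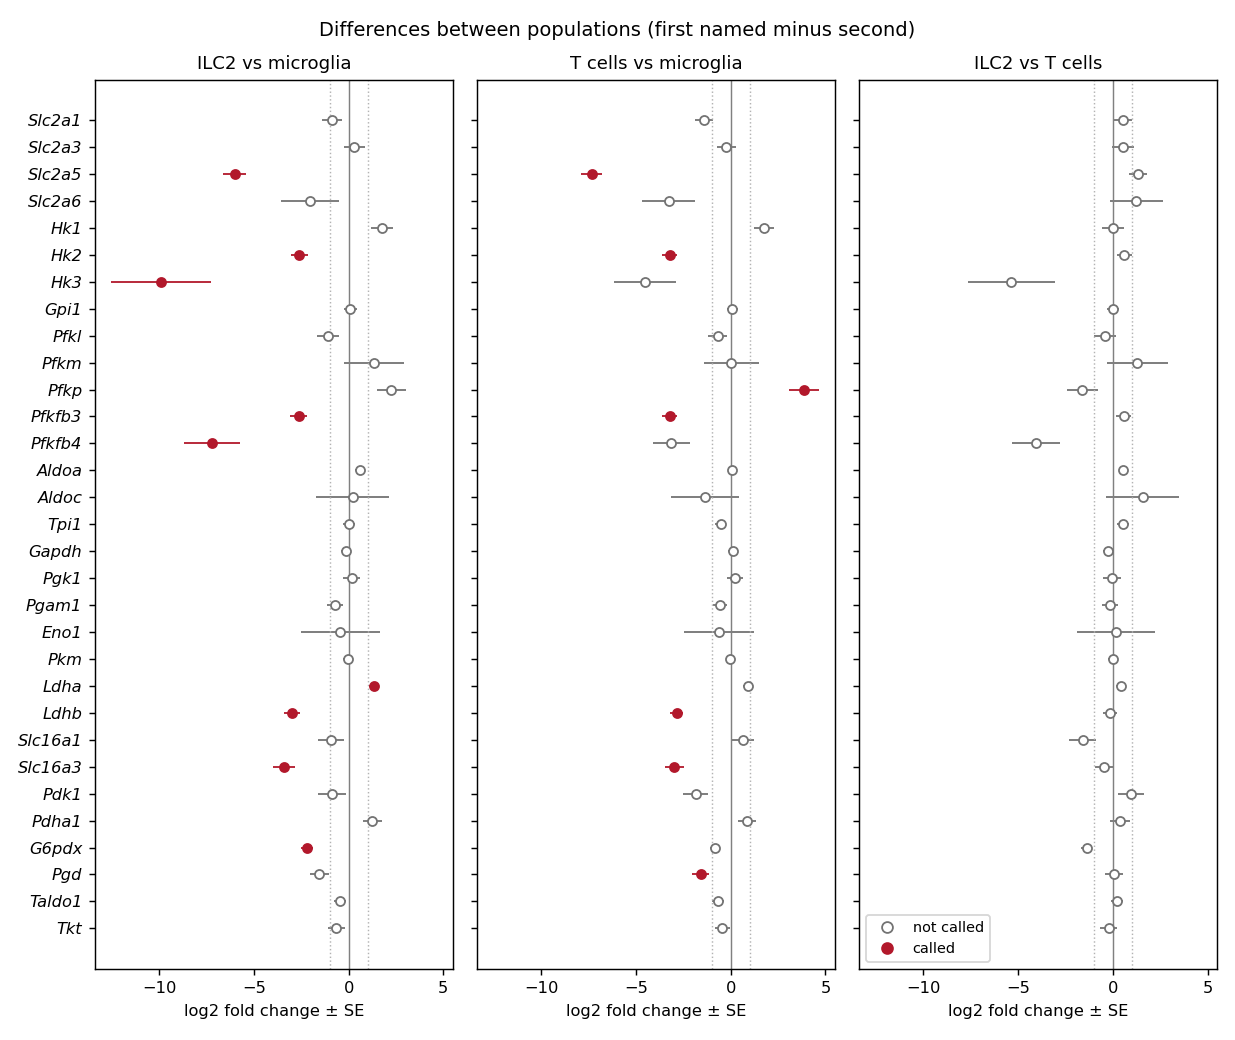
Log2 fold change of each gene (points) with its SE (bars) in the 3 comparisons, the first-named population minus the second; filled points passed the adjusted p and the fold threshold, and dotted lines mark a log2 fold change of 1 in either direction. Filled points lie on the lower side for 8 genes in ILC2 against microglia and for 6 genes in T cells against microglia, and there are none in ILC2 against T cells.

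The sequences just upstream of 4 of these genes are shown because their products form a path from sugar entry to lactate exit (Slc2a5, Hk2, Ldha and Slc16a3) and because hypoxia-inducible factor, which binds the cores ACGTG and GCGTG, is a known activator of many glycolytic genes. Each window runs from 250 bases before to 50 bases after a RefSeq start site in build GRCm38.p6, 5′ to 3′ on the strand of the gene, and capitals mark every ACGTG or GCGTG on either strand together with any CACGTG, the E-box bound by MYC and ChREBP, that contains one.
Slc2a5 (chr4:150119094-150119393, plus strand): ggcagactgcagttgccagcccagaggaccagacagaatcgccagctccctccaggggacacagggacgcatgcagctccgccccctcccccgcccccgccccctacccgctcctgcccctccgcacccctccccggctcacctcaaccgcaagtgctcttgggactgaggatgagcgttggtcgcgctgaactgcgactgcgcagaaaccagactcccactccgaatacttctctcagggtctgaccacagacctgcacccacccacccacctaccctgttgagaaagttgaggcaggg
Hk2 (chr6:82774405-82774704, minus strand): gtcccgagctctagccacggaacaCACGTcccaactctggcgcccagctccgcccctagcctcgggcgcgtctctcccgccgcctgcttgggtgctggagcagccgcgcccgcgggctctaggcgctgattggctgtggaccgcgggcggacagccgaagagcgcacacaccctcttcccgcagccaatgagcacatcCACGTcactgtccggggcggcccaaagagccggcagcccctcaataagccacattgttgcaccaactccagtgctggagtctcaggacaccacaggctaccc
Ldha (chr7:46845554-46845853, plus strand): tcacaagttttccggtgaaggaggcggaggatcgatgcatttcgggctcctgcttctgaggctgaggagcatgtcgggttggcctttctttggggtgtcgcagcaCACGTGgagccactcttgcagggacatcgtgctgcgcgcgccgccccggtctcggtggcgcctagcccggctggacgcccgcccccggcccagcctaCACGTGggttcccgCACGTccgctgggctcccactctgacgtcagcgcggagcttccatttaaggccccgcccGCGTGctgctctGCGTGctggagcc
Slc16a3 (chr11:120948817-120949116, plus strand): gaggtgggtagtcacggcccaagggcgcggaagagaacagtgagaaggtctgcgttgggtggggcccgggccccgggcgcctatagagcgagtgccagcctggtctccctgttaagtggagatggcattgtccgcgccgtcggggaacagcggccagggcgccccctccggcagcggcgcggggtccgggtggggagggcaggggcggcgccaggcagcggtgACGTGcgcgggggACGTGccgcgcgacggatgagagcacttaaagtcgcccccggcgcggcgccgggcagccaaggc

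Ldha has a pair of windows, and the one with more matches is shown. It holds 7 matches, of which 4 lie in its 2 CACGTG boxes, since a CACGTG counts once on each strand. The other Ldha window (chr7:46846832-46847131) holds 2 matches, both GCGTG, and no CACGTG. The windows of Hk2 and Slc16a3 hold 2 matches each and that of Slc2a5 holds none. Windows were found for 30 of the 31 genes (44 windows, since some genes have several start sites); Slc2a3 was not matched. At least 1 core was present in 35 of the 44 windows (79.5%), against 43.8% of the 32851 windows of the 27025 genes in the RefSeq promoter table, and in 27 of the 30 genes (90.0%), against 52.3% of 17492 protein-coding genes. CACGTG was present in 4 of the 44 windows (9.09%) and in 7.15% of all windows. The members and the other genes were not matched for base composition, and both cores contain the pair CG. Some windows of the same gene overlap, so a site in them counts more than once among the windows. No enrichment is therefore read from these shares. Genes with and without the cores were found among those higher in microglia, and these matches describe letters, not binding.

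The sugar transporters differed most between the populations in Slc2a5, which encodes GLUT5, a fructose transporter of gut and a known marker gene of microglia in brain (chr4:150119283-150144169 in GRCm38). Its level was 1408, 1132 and 714 CPM in the 3 microglia libraries, 3.04, 7.64 and 9.45 CPM in the 3 T cell libraries and 19.4 and 14.1 CPM in the 2 ILC2 libraries. The microglia libraries lay far above all others. The difference was called in ILC2 (log2 fold change -6.01 ± 0.61 SE, edgeR adjusted p = 0.000391) and in T cells (log2 fold change -7.33 ± 0.54 SE, edgeR adjusted p = 6.87e-05). With microglia 2 as the only microglia library it was still called, at log2 fold changes of -6.08 and -7.39 (edgeR adjusted p = 0.0042 and 0.00168). In T cells Slc2a5 stood at 0.280% to 0.871% of the microglia mean and in ILC2 at 1.30% and 1.79%, below the 1.98% to 4.07% and 2.59% and 3.96% at which the summed microglia markers stood. The other 4 genes called lower in both lymphocyte populations (Hk2, Pfkfb3, Ldhb and Slc16a3) stood at 7.50% to 19.8% of their microglia mean there. The part of microglia RNA in the lymphocyte levels of Slc2a5 and these genes was not tested.

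The general glucose transporters were spread more evenly. Slc2a1, which encodes GLUT1, was at 307, 166 and 162 CPM in microglia, 69.9, 124 and 44.0 CPM in T cells and 148 and 81.7 CPM in ILC2. Microglia were the highest without overlap, but the difference was not called in either population (adjusted p = 0.348 for ILC2 and 0.0735 for T cells by edgeR). In T cells 5 of 14 alternatives called it lower, among them DESeq2 (0.015) and limma-voom (0.031). GLUT1 is also abundant in brain endothelium, and the summed endothelial markers were 816, 299 and 323 CPM in microglia 1 to 3, 25.7 to 136 CPM in T cells and 48.1 to 67.2 CPM in ILC2. Slc2a1 and these markers were both highest in microglia 1, and the part of endothelial RNA in the Slc2a1 level was not tested. Slc2a3, which encodes the high-affinity GLUT3, was at 94.5 ± 42.2 CPM in microglia, 80.6 ± 24.5 CPM in T cells and 117 ± 87.5 CPM in ILC2 (SD, n = 3, 3 and 2), with overlap of all populations. Slc2a6, a lysosomal transporter known from inflammatory macrophages, was at 34.1 ± 12.9, 3.49 ± 3.66 and 8.31 ± 6.04 CPM in the same order and was not called. DESeq2 (adjusted p = 0.0324), limma-voom (0.0439) and the newer quasi-likelihood method of edgeR (0.0108) called it lower in T cells than in microglia.

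Per kilobase of exon, Slc2a5 made up 77.7% of the summed level of the 4 transporters in microglia (74.8% to 82.2%), against 5.02% in T cells and 8.51% in ILC2. In T cells Slc2a1 held 49.5% and Slc2a3 42.3%, and in ILC2 they held 49.7% and 36.4%. In microglia these 2 glucose transporters held 13.7% and 5.03%. The order of the transporters was thus Slc2a5 above Slc2a1 in every microglia library and Slc2a1 and Slc2a3 above Slc2a5 in every lymphocyte library.

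Hexokinases phosphorylate the sugar that enters. Hk2, the inducible form that binds mitochondria (chr6:82725025-82774454), was at 158, 152 and 266 CPM in microglia, 14.6, 25.5 and 21.9 CPM in T cells and 29.1 and 34.4 CPM in ILC2. Every lymphocyte library lay below every microglia library. Hk2 was lower in T cells (log2 fold change -3.21 ± 0.40 SE, edgeR adjusted p = 0.000746) and in ILC2 (log2 fold change -2.59 ± 0.46 SE, edgeR adjusted p = 0.0065). With microglia 2 as the only microglia library, the call was kept in T cells (log2 fold change -2.87, edgeR adjusted p = 0.0229) and lost in ILC2 (-2.26, adjusted p = 0.0903).

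Hk3, a hexokinase of myeloid cells that is inhibited by excess glucose (chr13:55005985-55021385), was at 141, 152 and 79.2 CPM in microglia. T cell library 3 held 15.9 CPM, while T cells 1 had no count and T cells 2 had 0.138 CPM. ILC2 1 had no count and ILC2 2 had 3 counts. The mean level of microglia was 1035 times the level given by these 3 counts over both ILC2 libraries (95% counting interval 354 to 5018, for counting error only). The ILC2 difference was called (edgeR adjusted p = 0.0433), but it was lost on leaving out any 1 microglia library (0.0749 to 0.0883) or either ILC2 library (0.185 and 0.199), and DESeq2 gave no adjusted p. The T cell difference was not called (log2 fold change -4.54 ± 1.63 SE, edgeR adjusted p = 0.1), but limma-voom (adjusted p = 0.00585), the newer method (0.000303), no filter (0.0223) and leaving out T cells 3 (0.00122) each gave a call. Hk3 is also expressed by neutrophils, and its highest microglia level was in microglia 2, the library lowest in neutrophil markers. With microglia 2 as the only microglia library, the log2 fold change of Hk3 in ILC2 was -10.2 and the call was lost. The part of neutrophil RNA in the Hk3 level was not tested in any other way.

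Hk1, the widely expressed form, was not called. Its level was 34.2, 16.1 and 38.6 CPM in microglia, 49.9, 135 and 115 CPM in T cells and 143 and 57.1 CPM in ILC2, so that all lymphocyte libraries were above all microglia libraries (edgeR adjusted p = 0.0632 for T cells and 0.0966 for ILC2). DESeq2 (adjusted p = 0.0272), the newer method (0.0189), no filter (0.0457) and leaving out T cells 1 (0.0451) gave a call in T cells. In ILC2 the newer method gave a call (0.0337). Per kilobase of exon, Hk1 held 6.42% of the summed hexokinase level in microglia, against 76.2% in T cells and 71.8% in ILC2. Hk2 and Hk3 held 43.4% and 50.1% in microglia. The log2 ratio of Hk1 to Hk2 per kilobase was -2.81 ± 0.52 in microglia, against 2.12 ± 0.36 in T cells and 1.45 ± 1.11 in ILC2 (SD, n = 3, 3 and 2). No microglia library overlapped with a lymphocyte library in this ratio, which does not depend on library scaling. The exact two-sided permutation test gave p = 0.1 for T cells and p = 0.2 for ILC2 against microglia, the smallest values these group sizes allow. Gpi1, the isomerase that follows, was at 354 ± 108, 375 ± 68.3 and 378 ± 72.2 CPM in microglia, T cells and ILC2, with log2 fold changes of 0.08 ± 0.30 and 0.09 ± 0.34 (SE) for T cells and ILC2 against microglia.

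Phosphofructokinase commits sugar to glycolysis. Pfkp, its platelet-type subunit (chr13:6579768-6648777), was the member called higher in T cells than in microglia. It was at 285, 244 and 225 CPM in T cells, 79.1 and 85.8 CPM in ILC2 and 2.12, 14.1 and 35.3 CPM in microglia. All T cell libraries lay above both ILC2 libraries, and those above all microglia libraries. The T cell difference from microglia was called (log2 fold change 3.87 ± 0.79 SE, edgeR adjusted p = 0.0113), also with microglia 2 alone (4.15, adjusted p = 0.00437), and leaving out 1 library moved the fold between 3.35 and 4.95. ILC2 stood between the others, and neither of its differences was called by edgeR (adjusted p = 0.11 against microglia and 0.612 against T cells). Against microglia it was called, as higher, by DESeq2 (adjusted p = 0.0304), limma-voom (0.0268), the newer quasi-likelihood method of edgeR (0.00896), with no filter (0.0437), without microglia 3 (0.0327) and with microglia 2 alone (0.0284). Against T cells limma-voom called it lower (0.0408). Of the 75-base windows of Pfkp transcripts, 14.8% also occur in the overlapping gene Pitrm1.

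Pfkl, the liver-type subunit, was at 124, 134 and 135 CPM in microglia, 31.0, 82.8 and 131 CPM in T cells and 84.3 and 38.5 CPM in ILC2 and was not called. Pfkm, the muscle-type subunit, was low throughout, at 5.24 ± 6.92, 5.39 ± 5.81 and 13.3 ± 4.36 CPM. Per kilobase of exon, Pfkl held 87.8% of the 3 subunits in microglia, against 26.5% in T cells and 40.4% in ILC2, while Pfkp held 8.72%, 71.4% and 49.3%. The log2 ratio of Pfkp to Pfkl per kilobase was -3.92 ± 2.00 in microglia, against 1.61 ± 1.23 in T cells and 0.29 ± 0.88 in ILC2 (SD). Microglia again did not overlap with either lymphocyte population (exact permutation p = 0.1 and 0.2, the smallest possible), while T cells and ILC2 overlapped (exact permutation p = 0.4).

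Pfkfb3 and Pfkfb4 encode bifunctional enzymes that make fructose 2,6-bisphosphate, the strongest allosteric activator of phosphofructokinase. Pfkfb3 (chr2:11471433-11554077) was at 124, 106 and 143 CPM in microglia, 14.1, 13.8 and 12.2 CPM in T cells and 15.4 and 24.3 CPM in ILC2. The lymphocyte libraries were close to each other and all below microglia. Both differences were called, in T cells (log2 fold change -3.21 ± 0.40 SE, edgeR adjusted p = 0.000726) and in ILC2 (log2 fold change -2.64 ± 0.46 SE, edgeR adjusted p = 0.00576). With microglia 2 alone the adjusted p was 0.0352 for T cells and 0.115 for ILC2, at folds of -2.98 and -2.41. Pfkfb4 (chr9:108991778-109032228) was at 172, 134 and 52.2 CPM in microglia, 5.96, 24.1 and 10.4 CPM in T cells, 0 CPM in ILC2 1 and 1.58 CPM in ILC2 2. It was called lower in ILC2 than in microglia (log2 fold change -7.21 ± 1.46 SE, edgeR adjusted p = 0.0129), with folds of -13.34 to -6.17 on leaving out 1 library, and the call was lost with microglia 2 alone (adjusted p = 0.068). In T cells it was not called (edgeR adjusted p = 0.0653), but 7 of 14 alternatives did call it lower, among them DESeq2 (0.00276), limma-voom (0.0267), the newer method (0.000711) and the fit of only these populations (0.0178). Nor was ILC2 called against T cells (log2 fold change -4.07 ± 1.27 SE, edgeR adjusted p = 0.279), where DESeq2 did call it.

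The enzymes from aldolase to pyruvate kinase had no call. None of the 8 genes of lower glycolysis was called in any comparison, where 9.75% (ILC2 against microglia), 13% (T cells against microglia) and 0.923% (ILC2 against T cells) of all genes tested were, so that with 8 genes this count lies near the background. All 8 had an absolute log2 fold change under 1 between ILC2 and microglia, as did 7 of 8 in the other comparisons. Their summed level was 2816, 2757 and 2663 CPM in microglia, 2401, 3017 and 2770 CPM in T cells and 2989 and 3451 CPM in ILC2. Microglia and T cells overlapped on this scale, but this depended on the TMM scaling. Without it, these genes held 0.231% to 0.239% of the counts in microglia and 0.264% to 0.323% in T cells. In ILC2 they held 0.351% and 0.346%, so every microglia library then lay below every lymphocyte library. Aldoa, the main aldolase, was at 1044, 1123 and 1019 CPM in microglia, 973, 1204 and 1128 CPM in T cells and 1506 and 1717 CPM in ILC2. Both ILC2 libraries were above all others, at log2 fold changes of 0.60 ± 0.24 against microglia and 0.55 ± 0.24 against T cells (SE; edgeR adjusted p = 0.157 and 0.51). Aldoc, the brain form known from astrocytes and Purkinje cells, was at 12.2 ± 15.8, 4.77 ± 6.23 and 14.1 ± 1.71 CPM in microglia, T cells and ILC2.

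Pkm, pyruvate kinase of muscle and most proliferating cells, was at 674, 624 and 653 CPM in microglia, 489, 713 and 717 CPM in T cells and 670.0 and 615 CPM in ILC2. The populations overlapped, with log2 fold changes of -0.02 ± 0.24 in T cells and -0.02 ± 0.27 in ILC2 against microglia (SE). Gapdh, which makes the first NADH of the pathway, was at 657 ± 58.7, 711 ± 69.4 and 606 ± 121 CPM in microglia, T cells and ILC2. Tpi1, triose phosphate isomerase, was at 252 ± 20.2, 174 ± 29.1 and 254 ± 89.1 CPM. Pgk1, which makes ATP from the triose, was at 46.4 ± 18.3, 54.0 ± 10.1 and 51.8 ± 1.08 CPM, and Pgam1, the mutase, was at 64.2 ± 15.1, 43.4 ± 3.10 and 39.1 ± 7.07 CPM. Eno1, the enolase of most cells, was at 1.20 ± 0.928, 0.788 ± 0.266 and 0.878 ± 0.215 CPM.

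Levels within this linear pathway were far from equal. Per kilobase of exon, Gapdh stood at 355 CPM per kilobase in microglia and Pgk1 at 25.4 CPM per kilobase, although they catalyse consecutive steps. Eno1 stood at 0.416 CPM per kilobase in microglia, the lowest of the 31 genes, with 6 to 23 counts in each library. Some of the genes have close copies in the genome. Of all 75-base windows of the transcripts, the length of a read, 67.5% in Pgk1, 44.3% in Eno1 and 40.6% in Pgam1 also occur in transcripts of another gene, and 55.5% in Gapdh, shared with 121 other genes. In the other 27 genes this share was at most 14.8%. The copy that shares most with Eno1, Eno1b, looked up after the Eno1 level was seen, was itself at 0 to 1.04 CPM in the 8 libraries. How reads that align to several places were counted is not given in the sources used here. The part of this in the levels was not tested, and the levels of these 4 genes are uncertain.

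**Figure D3:**
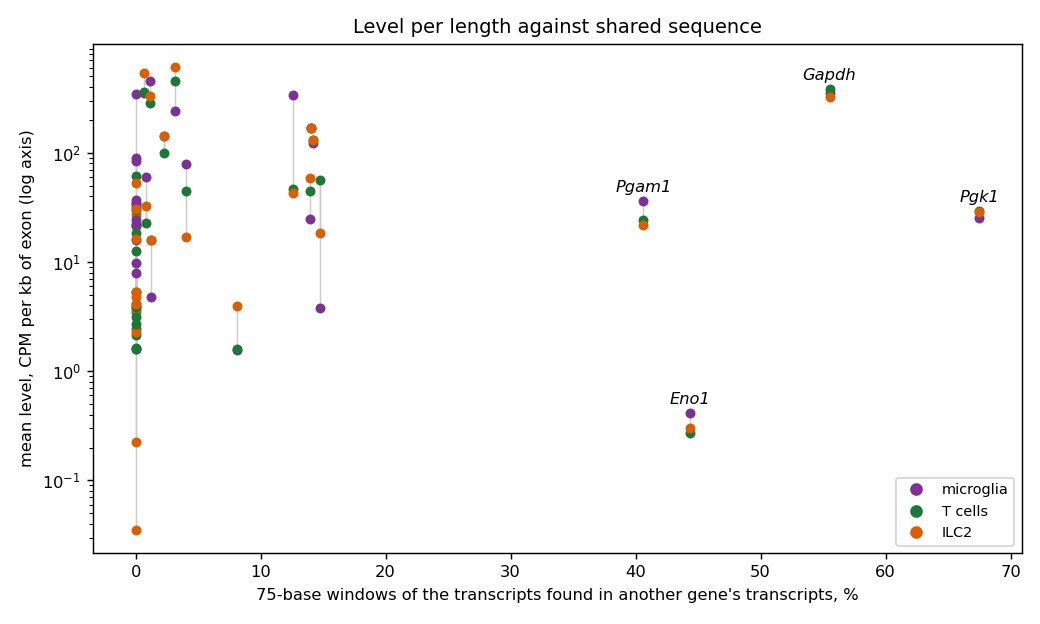
Mean level per kilobase of exon (CPM per kb, log axis) against the share of the 75-base windows of a gene's transcripts that also occur in another gene, with 1 point per gene and population (microglia, T cells and ILC2) and a line joining the points of a gene. Eno1, at 44.3%, has the lowest points in microglia and T cells, Pgk1 and Pgam1, at 67.5% and 40.6%, lie in the middle of the range, and Gapdh, at 55.5%, is among the highest.

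Pyruvate is turned into lactate by lactate dehydrogenase, a tetramer of A and B subunits in which Ldha is known to favour lactate formation and Ldhb the reverse. Between ILC2 and microglia the 2 genes were called in opposite directions. Ldhb (chr6:142490249-142507957) was at 579, 587 and 427 CPM in microglia, 69.6, 85.6 and 64.5 CPM in T cells and 42.8 and 91.6 CPM in ILC2. All lymphocyte libraries lay below all microglia libraries, and both differences were called, in T cells (log2 fold change -2.86 ± 0.35 SE, edgeR adjusted p = 0.00068) and in ILC2 (log2 fold change -2.98 ± 0.41 SE, edgeR adjusted p = 0.00183). With microglia 2 alone they stayed called, at -3.00 and -3.13 (edgeR adjusted p = 0.0111 and 0.0179).

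Ldha (chr7:46841475-46855627) was at 689.9, 546 and 659 CPM in microglia, 1301, 1124 and 1140.3 CPM in T cells and 1271 and 1920.4 CPM in ILC2. Every lymphocyte library was above every microglia library. Ldha was called higher in ILC2 (log2 fold change 1.34 ± 0.27 SE, edgeR adjusted p = 0.0128). The ILC2 call was lost without microglia 2 (adjusted p = 0.054), without ILC2 2 (0.0792) and with microglia 2 alone (0.102). In T cells the adjusted p passed but the fold did not reach the threshold (log2 fold change 0.91 ± 0.25 SE, edgeR adjusted p = 0.0382). The log2 ratio of Ldha to Ldhb per kilobase was -0.48 ± 0.37 in microglia, against 3.29 ± 0.27 in T cells and 3.90 ± 0.36 in ILC2 (SD). As a plain ratio, Ldha was 0.557 to 0.925 times Ldhb in microglia, 7.87 to 11.2 times in T cells and 12.6 and 17.8 times in ILC2. The 3 populations did not overlap in this ratio (exact permutation p = 0.1 for T cells and 0.2 for ILC2 against microglia, the smallest possible). Per kilobase of exon, Ldha was the highest of the 31 genes in T cells (453 CPM per kilobase) and ILC2 (609 CPM per kilobase), and Taldo1 in microglia (454 CPM per kilobase).

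**Figure D4:**
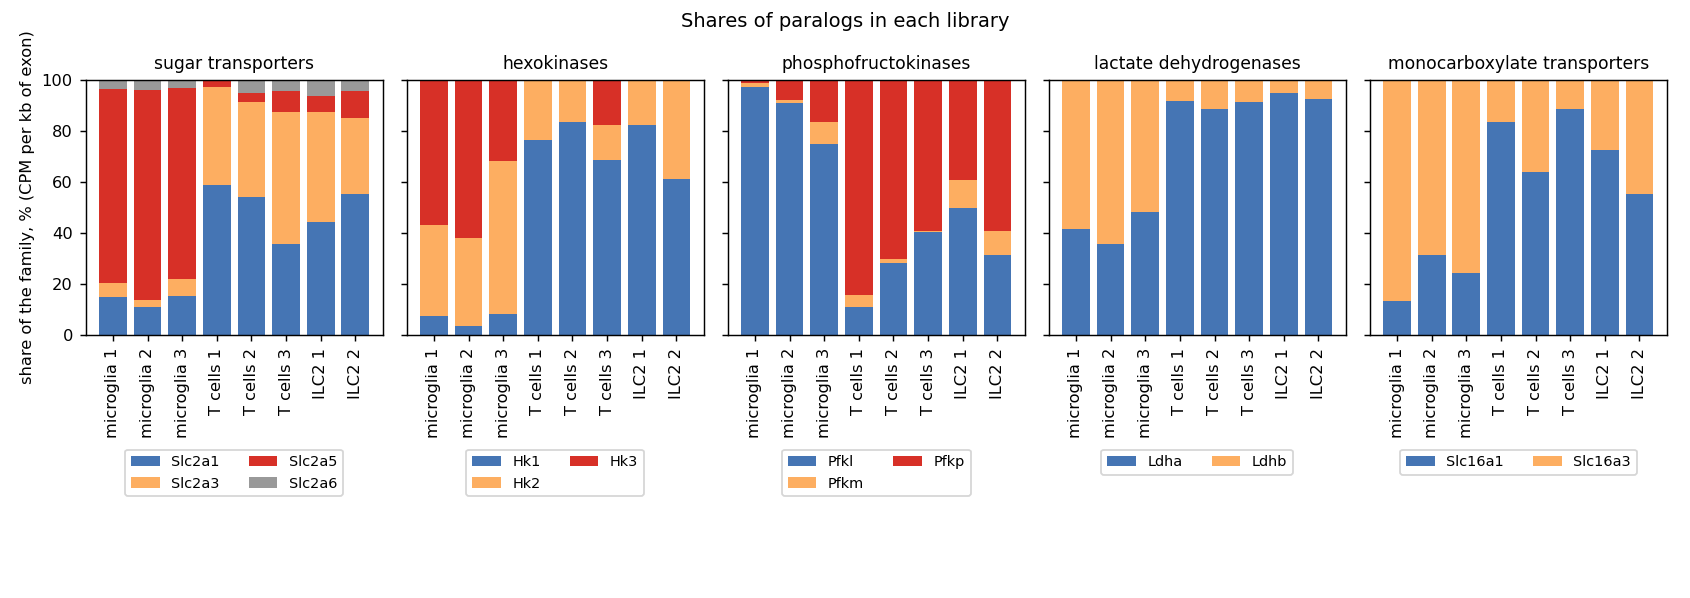
Share of each paralog in the summed level of its family (percent of CPM per kilobase of exon) in each of the 8 libraries, for sugar transporters, hexokinases, phosphofructokinase subunits, lactate dehydrogenase subunits and monocarboxylate transporters. The 3 microglia bars are made up mostly of Slc2a5, of Hk2 and Hk3, of Pfkl, of more Ldhb than Ldha and of Slc16a3, and the 5 lymphocyte bars mostly of Slc2a1 and Slc2a3, of Hk1, of Pfkp with Pfkl, of Ldha and of Slc16a1. Without division by exon length Ldha made up 54.4% and Ldhb 45.6% in microglia, so the order of this pair there turns with the scale.

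Lactate leaves cells through MCT4, encoded by Slc16a3, a low-affinity exporter, or crosses in both directions through MCT1, encoded by Slc16a1. Slc16a3 (chr11:120948480-120960868) was at 94.3, 132 and 115 CPM in microglia, 9.32, 22.5 and 11.7 CPM in T cells and 8.55 and 12.9 CPM in ILC2. The populations of lymphocytes overlapped with each other and lay below microglia. Slc16a3 was called lower in T cells (log2 fold change -2.97 ± 0.49 SE, edgeR adjusted p = 0.00328) and in ILC2 (log2 fold change -3.41 ± 0.59 SE, edgeR adjusted p = 0.00562). With microglia 2 alone, the adjusted p was 0.0424 for T cells and 0.0505 for ILC2. Slc16a1 was at 13.9, 57.0 and 35.3 CPM in microglia, 43.9, 37.7 and 85.3 CPM in T cells and 21.5 and 15.2 CPM in ILC2, and was not called. The log2 ratio of Slc16a1 to Slc16a3 per kilobase was -1.82 ± 0.79 in microglia, against 2.02 ± 1.09 in T cells and 0.86 ± 0.78 in ILC2 (SD), with no overlap between microglia and lymphocytes (exact permutation p = 0.1 and 0.2, the smallest possible). T cells and ILC2 thus had higher Ldha and lower Slc16a3 levels than microglia in every library.

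Entry of pyruvate into mitochondria is set by pyruvate dehydrogenase and by the kinases that inhibit it. Pdha1, its catalytic subunit, was at 123, 38.7 and 48.8 CPM in microglia, 85.1, 163 and 132 CPM in T cells and 167 and 165 CPM in ILC2, not called (edgeR adjusted p = 0.261 and 0.17 against microglia). Without microglia 1 it was called higher in T cells (edgeR adjusted p = 0.0464) and ILC2 (0.0309), and limma-voom called it higher in ILC2 (0.0433). Pdk1, a kinase that inhibits pyruvate dehydrogenase, was at 50.5 ± 23.0, 14.2 ± 10.3 and 27.4 ± 4.56 CPM in microglia, T cells and ILC2, also not called. Every T cell library was below every microglia library in Pdk1 (log2 fold change -1.83 ± 0.66 SE, edgeR adjusted p = 0.0992). DESeq2 (adjusted p = 0.0329), the newer method (0.0309) and leaving out T cells 1 (0.0475) gave a call there.

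All 4 pentose phosphate genes among the members had negative fold changes in both lymphocyte populations against microglia, and 1 was called lower in each comparison, where 4.76% of all genes tested were called lower in ILC2 and 7.13% in T cells. G6pdx, glucose-6-phosphate dehydrogenase, catalyses the first, NADPH-forming step (chrX:74409483-74429194). It was at 216, 180.2 and 232 CPM in microglia, 119.9, 113 and 122 CPM in T cells and 43.2 and 47.5 CPM in ILC2. The 3 populations did not overlap, with microglia highest and ILC2 lowest. Against microglia it was called lower in ILC2 (log2 fold change -2.21 ± 0.32 SE, edgeR adjusted p = 0.00223), also with microglia 2 alone (-1.99, adjusted p = 0.0444), and not called in T cells (log2 fold change -0.82 ± 0.27 SE, edgeR adjusted p = 0.071). ILC2 against T cells gave a log2 fold change of -1.38 ± 0.31 SE (edgeR adjusted p = 0.0962), which DESeq2 called (adjusted p = 0.00309).

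Pgd, 6-phosphogluconate dehydrogenase (chr4:149149991-149166771), makes the second NADPH. It was at 235, 156 and 204 CPM in microglia, 52.3, 57.9 and 87.1 CPM in T cells and 101 and 34.7 CPM in ILC2. It was called lower in T cells (log2 fold change -1.59 ± 0.44 SE, edgeR adjusted p = 0.0401), but this was lost on leaving out any 1 of the microglia or T cell libraries (adjusted p = 0.0581 to 0.122) and with microglia 2 alone (-1.25, adjusted p = 0.327). In ILC2 it was not called (log2 fold change -1.55 ± 0.50 SE, edgeR adjusted p = 0.0895), but 4 of 14 alternatives called it lower, DESeq2 (0.0151) and limma-voom (0.0187) among them. Taldo1, transaldolase, was at 728, 574 and 554 CPM in microglia, 332, 431 and 406 CPM in T cells and 307 and 597 CPM in ILC2. Tkt, transketolase, was at 269 ± 64.9, 198 ± 94.9 and 172 ± 16.7 CPM. Neither gene of the non-oxidative branch was called, at log2 fold changes against microglia of -0.67 ± 0.30 and -0.44 ± 0.39 in T cells and -0.45 ± 0.33 and -0.65 ± 0.45 in ILC2 (SE).

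Beyond these 31 genes, 119 further genes of sugar and lactate transport, sugar metabolism, glycogen, pyruvate entry, hypoxia-inducible factor and its targets were listed, of which 99 were tested. Against microglia, 9 were called in ILC2 (2 higher, 7 lower) and 13 in T cells (3 higher, 10 lower), or 9.09% and 13.1% of those tested, close to the 9.75% and 13% of all genes tested. Between ILC2 and T cells 1 was called, where 0.923% of all genes tested were. With microglia 2 as the only microglia library, several of the calls given below were lost by edgeR. In T cells these were Bach1 (adjusted p = 0.110), Mlxipl (0.170), Prps1 (0.0978), Slc2a8 (0.355) and Vhl (0.116). In ILC2 these were Bach1 (0.201), Bsg (0.145), G6pc3 (0.0549), Mlxipl (0.128) and Mpi (0.15). G6pc3 is known from neutrophils, and the part of neutrophil RNA in these levels was not tested in any other way.

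The chaperones of the lactate transporters differed. Bsg, basigin, which carries MCT1 and MCT4 to the membrane, was at 1437, 1109 and 1161 CPM in microglia, 328, 366 and 444 CPM in T cells and 446 and 534 CPM in ILC2 and was lower in T cells (log2 fold change -1.70 ± 0.25 SE, edgeR adjusted p = 0.00174) and ILC2 (log2 fold change -1.33 ± 0.28 SE, edgeR adjusted p = 0.0159), a call lost without ILC2 1 (0.0819). Basigin is also abundant in brain endothelium, whose summed markers are given above with Slc2a1. Emb, embigin, the chaperone of MCT2 and also of MCT1, was at 73.1, 11.7 and 39.6 CPM in microglia, 419, 411 and 389.9 CPM in T cells and 1001 and 1482 CPM in ILC2, and was higher in T cells (log2 fold change 3.29 ± 0.56 SE, edgeR adjusted p = 0.0043) and in ILC2 (log2 fold change 4.90 ± 0.63 SE, edgeR adjusted p = 0.00114). Slc16a7, which encodes MCT2, had no count in T cells and was at 24.6, 64.3 and 8.02 CPM in microglia, at least 117-fold higher, or at least 59.0-fold without microglia 2. Slc2a8, an intracellular hexose transporter, was lower in T cells (log2 fold change -2.57 ± 0.71 SE, edgeR adjusted p = 0.0412), a call lost on leaving out any library but T cells 3.

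Tktl1, a transketolase-like gene, had no count in microglia and was at 8.24, 28.0 and 26.8 CPM in T cells and 35.6 and 145 CPM in ILC2, at least 69.1-fold and 297-fold higher than the floor of 3 counts per library. The size of the ILC2 bound depended on the library, since it was at least 117-fold without ILC2 2 and at least 478-fold without ILC2 1. Prps1, which uses the ribose of the pentose phosphate pathway for nucleotide synthesis, was higher in T cells (log2 fold change 1.83 ± 0.47 SE, edgeR adjusted p = 0.0316), lost without microglia 2 (0.0972), microglia 3 (0.0959), T cells 2 (0.104) or T cells 3 (0.0799). Mpi, the mannose phosphate isomerase, was lower in T cells (log2 fold change -3.78 ± 0.63 SE, edgeR adjusted p = 0.00366) and ILC2 (log2 fold change -2.67 ± 0.70 SE, edgeR adjusted p = 0.0412), the latter lost without any 1 of 5 libraries. G6pc3, a glucose-6-phosphatase known from neutrophils, was lower in ILC2 (log2 fold change -2.08 ± 0.45 SE, edgeR adjusted p = 0.0185), lost without microglia 2 (0.0656), ILC2 1 (0.0985) or ILC2 2 (0.0811).

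Among regulators, Epas1, which encodes HIF-2α, was the gene called between the lymphocyte populations. It was at 96.6 and 68.9 CPM in ILC2, 8.67, 7.78 and 5.17 CPM in T cells and 15.6, 28.5 and 30.8 CPM in microglia (log2 fold change 3.52 ± 0.58 SE, edgeR adjusted p = 0.0247). Both ILC2 libraries lay above all others, and the call was lost on leaving out any 1 T cell or ILC2 library (0.0699 to 0.16). Hif1a, which encodes HIF-1α, was at 132 ± 28.2, 64.8 ± 30.8 and 76.5 ± 27.3 CPM in microglia, T cells and ILC2 and was not called. Vhl, the ubiquitin ligase subunit that removes both factors, was lower in T cells (log2 fold change -2.29 ± 0.54 SE, edgeR adjusted p = 0.0224), lost without microglia 2 (0.0614), microglia 3 (0.0634) or T cells 2 (0.068). P4ha1, a collagen prolyl hydroxylase and a target of hypoxia-inducible factor, was at 375, 548 and 401 CPM in microglia, 32.7, 61.0 and 64.1 CPM in T cells and 39.1 and 29.4 CPM in ILC2, lower in both (log2 fold change -3.07 ± 0.36 SE, edgeR adjusted p = 0.00052 for T cells and log2 fold change -3.69 ± 0.44 SE, edgeR adjusted p = 0.000806 for ILC2).

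Nfe2l2, which encodes NRF2, an activator of G6pdx, Pgd, Taldo1 and Tkt, was at 184, 298 and 319 CPM in microglia, 60.2, 91.4 and 91.1 CPM in T cells and 56.1 and 60.4 CPM in ILC2. It was lower in T cells (log2 fold change -1.72 ± 0.33 SE, edgeR adjusted p = 0.00771) and ILC2 (log2 fold change -2.20 ± 0.39 SE, edgeR adjusted p = 0.00652). Bach1, a repressor at NRF2 sites, was lower in the same populations, in T cells (log2 fold change -4.87 ± 0.84 SE, edgeR adjusted p = 0.00463) and in ILC2 (log2 fold change -4.54 ± 0.99 SE, edgeR adjusted p = 0.0183), the latter lost without microglia 3 (0.075) or ILC2 2 (0.108). Mlxipl, which encodes ChREBP, a sugar-sensing activator of glycolytic genes, was at 36.8, 64.3 and 102 CPM in microglia while neither ILC2 library had a count, which makes the ILC2 level at least 282-fold lower (edgeR adjusted p = 0.0206), and was lower in T cells (log2 fold change -6.78 ± 1.59 SE, edgeR adjusted p = 0.0252). Both Mlxipl calls were lost without microglia 3 (adjusted p = 0.0656 in ILC2 and 0.0888 in T cells), the T cell call without microglia 2 (0.061), and the ILC2 call without ILC2 1 (0.0895) or ILC2 2 (0.113).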

How the data were processed

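Total RNA of microglia, T cells and ILC2 was sequenced as single-end reads of 75 bases, per the labels. The submitters' processing notes name STAR 2.5.3a, Cufflinks 2.0, DESeq2 1.1, bcl2fastq 2.20.0.422 and FastQC 1.0.0, with build mm10. What each tool did, how reads were assigned to genes and whether strand was used are not given in the sources used here. The deposited table holds whole-number read counts per gene, not normalized. Of 24423 rows, 27 with symbols turned into dates and 2 for reads outside genes (53.8% to 61.0%) or ambiguous (0.338% to 1.23%) were left out. Of 9 library columns, 1 headed ILC1 matches no label and was not used, leaving 8. The labels list 3 ILC2 samples and 2 columns are headed ILC2, so ILC2 has 2 libraries here. Headings carry no replicate numbers, so libraries are numbered by column order, which pairs nothing. The sample titles number the samples of each population alike, so libraries of different populations may share donors. The tests treat all libraries as independent. No 2 libraries agreed within sampling noise (chi-square per gene at least 81.0).

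Counts were scaled by TMM (factors 0.822 to 1.18) and tested with edgeR 4.0.16 (quasi-likelihood F test, two-sided) with limma 3.58.1 in R 4.3.3, in 1 fit with 3 groups, on 13000 genes whose count averaged 10 or more, with Benjamini-Hochberg adjustment over them. Standard errors were derived from the fold change and its F statistic (size over root F). The edgeR common coefficient of biological variation was 0.967. The fit was tested on data simulated with a smaller spread than this. That test therefore does not show how the fit performs at the spread of these libraries. Ratios of paralogs were compared by an exact two-sided permutation test over libraries (scipy). Folds against a population with no count use a floor of 3 counts per library, and ratios to 1 to 3 counts have 95% Poisson intervals; both cover counting error only.

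Exon lengths and coordinates are from GENCODE M21 (GRCm38, the assembly of mm10) and promoter windows from RefSeq (GRCm38.p6). The members and lists were chosen with earlier results of these data known. Every member was named, and of the further pathway genes at most the 10 called genes with the largest absolute fold change per comparison; Bsg and Nfe2l2, named for ILC2, are also given for T cells. Alternatives were DESeq2 1.42.0 size factors and test, limma-voom, no filter, the newer quasi-likelihood method of edgeR, a fit of only the populations compared, no minimum fold change, each library left out, and, added after seeing the data, both microglia libraries richest in neutrophil counts left out.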

Additional observations from a re-analysis of the deposited data

How the results depend on the processing

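No paired analysis was possible because the column headings carry no replicate numbers. No fold change of a called gene turned its direction under any alternative run. Size factors of DESeq2 moved the median log2 fold change of all genes between T cells and microglia by -0.10. The counts of calls depended on the tool. With DESeq2, 2 members were called lower between ILC2 and T cells in place of 0, 2 higher between ILC2 and microglia in place of 1, and 2 higher and 10 lower between T cells and microglia in place of 1 and 6. Limma-voom gave 1, 3 and, for T cells against microglia, 10 lower. The newer quasi-likelihood method gave 3 higher in ILC2 against microglia and 2 higher and 11 lower in T cells against microglia. With no filter, 2 members were higher in each comparison with microglia, and with no minimum fold change 2 were higher in T cells. With microglia 2 as the only microglia library, whose spread is then taken from the other populations, 3 members were lower in ILC2 in place of 8.

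Of the further pathway genes, those higher in ILC2 than T cells numbered 2 with DESeq2, 3 with limma-voom, 3 with the newer method and 2 with only those populations, in place of 1. Against microglia, ILC2 had 6 higher with each of DESeq2, limma-voom and the newer method in place of 2, and 11 lower with DESeq2 and the newer method, or 2 with microglia 2 alone, in place of 7. T cells had 21 lower with DESeq2, 16 with limma-voom, 17 with the newer method and 6 with microglia 2 alone, in place of 10. Over all genes, 120 were called between ILC2 and T cells, and 526 with DESeq2, 292 with limma-voom, 235 with no filter and 321 with the newer method. Between ILC2 and microglia 1268 were called, and 2329, 2085 and 2251 with DESeq2, limma-voom and the newer method and 549 with microglia 2 alone. Between T cells and microglia 1695 were called, and 2701 with DESeq2, 2723 with the newer method and 687 with microglia 2 alone.

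Leaving out 1 ILC2 library leaves 1, which is then taken to vary like the other populations. Leaving out 1 library gave 62 to 121 calls over all genes between ILC2 and T cells (62 when ILC2 2 was left out, 71 for T cells 1 and 76 for ILC2 1) and 711 to 1270 between ILC2 and microglia (711 without ILC2 2). Further pathway genes higher in ILC2 than T cells ranged from 0 to 1, with 0 without any T cell or ILC2 library. Members higher in ILC2 than microglia ranged from 0 to 2, with 0 without microglia 2 or ILC2 2 and 2 without microglia 1 or 3, and pathway genes lower from 3 to 8, with 3 without either ILC2 library. Members higher in T cells than microglia ranged from 1 to 2, with 2 without microglia 1 or T cells 1, and pathway genes lower from 6 to 11, with 6 without microglia 2. Without TMM scaling the members summed to 6838 CPM in microglia in place of 7995 and to 6640 CPM in T cells in place of 6010. In all, 59 counts or levels moved and 340 did not, and of the fold changes of called genes 71 missed the threshold under an alternative and 513 did not. Depth limits the genes with few counts: Hk3 rests on 3 counts in ILC2, so its fold there is known only within its counting interval.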

Other observations

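Among the neighbouring lists, none of the 11 tested genes for pyruvate entry into mitochondria was called in any comparison by edgeR, where 9.75%, 13% and 0.923% of all genes tested were called between ILC2 and microglia, T cells and microglia, and ILC2 and T cells. They summed to 469 ± 17.4 CPM in microglia, 543 ± 43.2 CPM in T cells and 642 ± 72.7 CPM in ILC2 (SD, n = 3, 3 and 2). Of the 9 tested genes of glycogen metabolism, 1 was called lower in T cells than in microglia (11.1%) and none in the other comparisons. That call was lost without microglia 2 (edgeR adjusted p = 0.133) or any 1 T cell library (0.0536 to 0.110). Of the 15 tested hypoxia targets outside glycolysis, P4ha1 was called in each comparison with microglia (6.67%). With so few genes a list, these counts lie near the shares of all genes. The hypoxia targets summed to 855 ± 37.2 CPM in microglia, 425 ± 41.0 CPM in T cells and 629 ± 12.3 CPM in ILC2. P4ha1, whose levels are given above, held a large part of the microglia sum and a small part of the others. The order of these sums therefore depends on P4ha1, and without it the ILC2 sum would be the highest. Against microglia, 6 of the 15 genes had positive and 9 negative fold changes in each lymphocyte population.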
